A study of Mus musculus with 9 samples.

Results

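The genes described here are 10 imprinted genes that belong to the transcript network of quiescent haematopoietic stem cells: Igf2, Igf2r, Grb10, H19, Mest, Dlk1, Meg3, Ndn, Peg3 and Plagl1. They were taken by name from a table of 24060 named genes, and all 10 were found. RNA was sequenced from LSK cells (Lin- Sca1+ Kit+), the bone marrow fraction that holds stem cells and multipotent progenitors. The marrow came from C57BL/6 background donors and had been transplanted with CD45.1+ helper cells into lethally irradiated congenic recipients, and the labels give an age of 4 months for every sample. Control marrow was C57BL/6 (3 libraries). NHD13 marrow carried the NUP98-HOXD13 fusion, a model of myelodysplastic syndrome in which the Vav promoter drives the transgene in blood cells (2 libraries). NHD13/MSI2 marrow carried the same fusion together with MSI2, an RNA-binding protein, placed at Col1A1 under a tetracycline operator and switched on by a ROSA26 transactivator (4 libraries). Cells were collected after 3 months of doxycycline, and no group with MSI2 alone was analysed here.

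Imprinted genes are read mainly from the copy inherited from 1 parent, because DNA methylation laid down in the egg or sperm marks the parental copies differently. Many of them act on growth. Igf2, Dlk1, Mest, Ndn, Peg3 and Plagl1 are read from the paternal copy in most tissues, and H19, Meg3, Igf2r and, outside the brain, Grb10 from the maternal one. In blood, several of these genes are known from long-term stem cells, in which the H19-Igf2 and Dlk1-Meg3 loci have been linked to a resting state. Counts per gene hold no information on the parental copy, so the values below are sums over both.

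The libraries held 19242153 to 23013493 counts on named genes. Values are CPM, counts scaled to a common library size after adjusting the sizes by trimmed mean of M-values factors, and 3 counts corresponded to 0.120 to 0.195 CPM. Ptprc lay between 482 and 804 CPM in every library and Kit between 908 and 2253 CPM, while Ly6a, which encodes Sca1, was the lower of the sorting markers, from 48.3 to 375 CPM. Control libraries 1 and 3 held 21712 and 21664 counts of Xist and the other 7 libraries at most 49, and donors of both sexes were used in the study. Uty, on the Y chromosome, had 32 and 1 counts in control libraries 1 and 3 and at least 1971 in the others. Sex was thus partly confounded with group in the comparisons with control, and its part in them was not tested. The description of control library 1 names bulk cells and those of control libraries 2 and 3 name stem and multipotent cells. NHD13/MSI2 library 4 stood apart from the other NHD13/MSI2 libraries, with correlations across genes of 0.943 to 0.949 against 0.970 to 0.973 among the other three, and the 2 NHD13 libraries correlated at 0.937.

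Promoter sequence is shown for the 3 genes whose calls involved NHD13 libraries, because DNA methylation falls on CpG sites. Whether these windows are regions methylated in imprinting was not examined. RefSeq windows on GRCm38.p6 were found for 9 of the 10 genes, and each sequence gives the 250 bases before a transcription start, 5' to 3' on the gene's strand. Capitals mark CpG dinucleotides. Grb10 lies on the minus strand of chromosome 11 and its window is chr11:12037421-12037670. Igf2r lies on the minus strand of chromosome 17, with its window at chr17:12769707-12769956. Dlk1 lies on the plus strand of chromosome 12, with its window at chr12:109452573-109452822.
Grb10: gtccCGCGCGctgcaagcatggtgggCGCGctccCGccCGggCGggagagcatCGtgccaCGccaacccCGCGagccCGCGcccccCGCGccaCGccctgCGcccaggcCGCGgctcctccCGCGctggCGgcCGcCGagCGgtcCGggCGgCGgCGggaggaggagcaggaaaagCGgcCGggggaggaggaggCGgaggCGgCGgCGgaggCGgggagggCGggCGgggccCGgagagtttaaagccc
Igf2r: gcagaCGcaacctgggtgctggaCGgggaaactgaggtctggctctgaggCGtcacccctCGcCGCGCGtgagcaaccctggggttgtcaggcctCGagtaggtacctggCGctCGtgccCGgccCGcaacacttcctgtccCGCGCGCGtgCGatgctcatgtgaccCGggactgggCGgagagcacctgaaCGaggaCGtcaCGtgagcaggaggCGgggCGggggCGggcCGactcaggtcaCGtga
Dlk1: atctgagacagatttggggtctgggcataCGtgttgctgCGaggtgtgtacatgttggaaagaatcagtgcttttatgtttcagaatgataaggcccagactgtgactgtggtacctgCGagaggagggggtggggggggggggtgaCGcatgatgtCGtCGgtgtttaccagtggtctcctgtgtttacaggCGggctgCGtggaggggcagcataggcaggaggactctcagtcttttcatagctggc
The Grb10 window held 40 CpG and the Igf2r window 27, against a median of 6 over 32851 windows. Of all windows, 1.31% held at least as many CpG as that of Grb10 and 8.56% at least as many as that of Igf2r. The Dlk1 window held 8, a number that 43.0% of windows reached. Grb10 has a further RefSeq start with 8 CpG in its window, so CpG content differed between starts of the same gene. The Grb10 window shown was chosen for holding more CpG than the other. Its share of 1.31% is therefore favoured by that choice and is no measure of how unusual Grb10 is. Igf2r and Dlk1 had no other window. The letters TGCCGC, the core that the imprint-keeping protein ZFP57 binds when methylated, were searched on both strands. They were in windows of Meg3, Plagl1 and Mest, and in 8.68% of all windows. The 2 Mest windows that held them are the same stretch but for a few bases.

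The study asked how MSI2 changes the stem cell compartment of NHD13 marrow, and the groups allow 3 comparisons: NHD13 over control, NHD13/MSI2 over control and NHD13/MSI2 over NHD13. These comparisons share libraries. Of the 10 genes, 4 passed the threshold in at least 1 comparison: Grb10 and Igf2r were lower in NHD13/MSI2 than in both other groups, Ndn was lower in NHD13/MSI2 than in control, and Dlk1 was higher in NHD13 than in either other group. H19, Mest and Peg3 were tested and did not pass, and Igf2, Meg3 and Plagl1 had too few counts for the edgeR test. The threshold was an adjusted p of 0.01 in edgeR's quasi-likelihood test over 13355 genes.

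In NHD13 over control, 1 of the 10 genes was higher and 0 were lower, where 0.824% of all genes tested were higher and 0.210% lower. At an unadjusted p under 0.05, 3 were higher and 1 lower, and DESeq2 called 2 higher and 1 lower. Of all 13355 genes tested, 1023 were higher and 779 lower at that p, and DESeq2 called 376 and 226 of them. For NHD13/MSI2 over control, 0 were higher and 3 lower, against 4.49% and 6.55% of all genes. At an unadjusted p under 0.05, 1 was higher and 4 lower, Peg3 included. DESeq2 called 1 higher and 4 lower, without Peg3 and with Meg3, which is not among the 13355 genes tested. Of all genes tested, 1933 were higher and 2447 lower at that p, and DESeq2 called 1077 and 1506 of them. Between NHD13/MSI2 and NHD13, 0 were higher and 3 lower, against 0.584% and 2.58%, and neither an unadjusted p under 0.05 nor DESeq2 gave another number. Of all genes tested, 1047 were higher and 1857 lower at that p, and DESeq2 called 396 and 897 of them. Dlk1 passed the filter on low counts only through the NHD13 libraries and Ndn and Peg3 only through control libraries. The counts of calls therefore describe the 10 genes and carry no further weight.

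**Figure D1:**
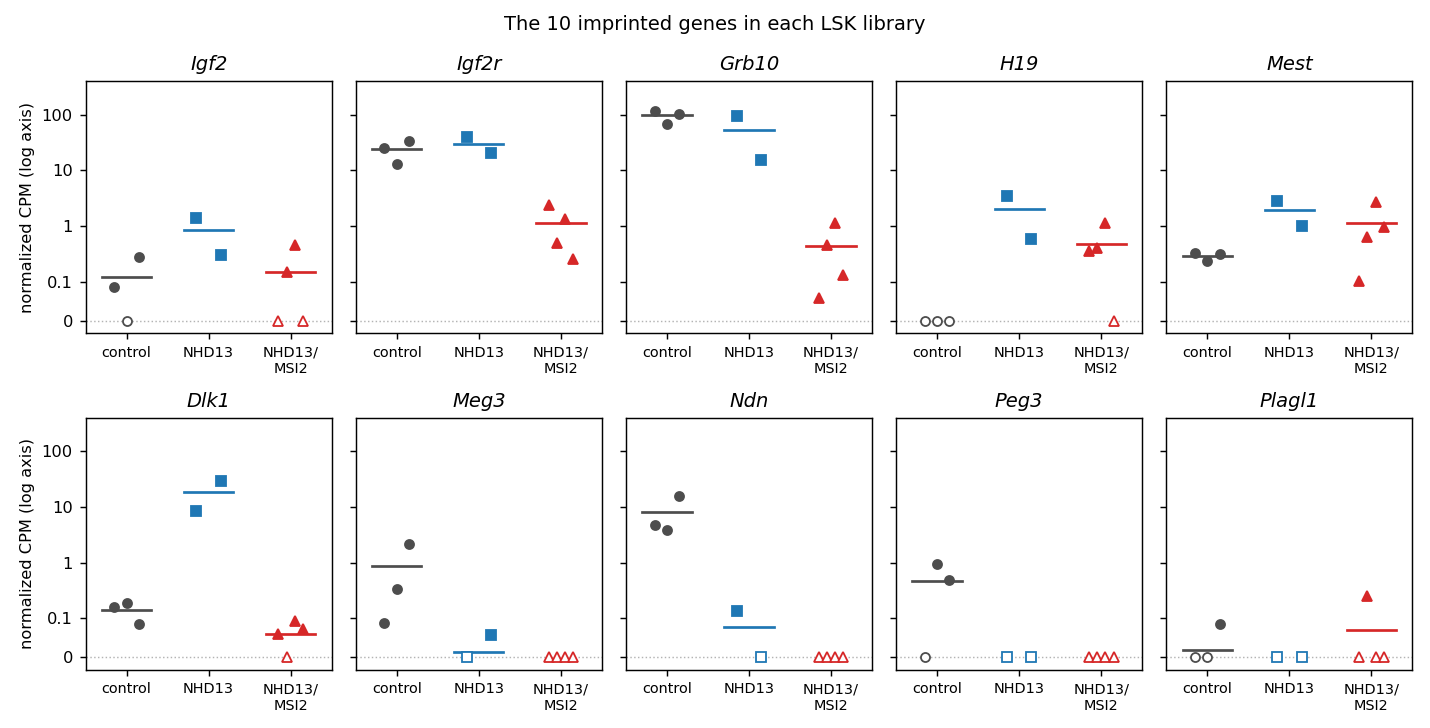
Normalized CPM of the 10 genes (vertical log axis) in each of 3 control, 2 NHD13 and 4 NHD13/MSI2 libraries. Each symbol is 1 library, the bar is the group mean, and open symbols on the dotted line are libraries with no count. Grb10 and Igf2r are low in all 4 NHD13/MSI2 libraries, Dlk1 is high in both NHD13 libraries, and Ndn is high in the 3 control libraries alone.

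Grb10 encodes an adaptor protein that binds the insulin and IGF1 receptors and restrains their signal. It spans chr11:11930508-12038683 on the minus strand (GRCm38). Its level was 118, 67.2 and 104 CPM in control libraries 1 to 3 (96.3 ± 26.2, SD, n = 3). The NHD13 libraries gave 92.4 and 15.4 CPM (53.9 ± 54.5, SD, n = 2). The NHD13/MSI2 libraries gave 0.0517, 0.449, 1.13 and 0.130 CPM (0.440 ± 0.491, SD, n = 4), which rest on 37 counts in all. Every NHD13/MSI2 library lay below every library of the other groups, whereas control and NHD13 overlapped. The difference between NHD13/MSI2 and control was -7.67 on the log2 scale (SE 0.84, adjusted p = 0.000348), a level 204 times lower. Against NHD13 it was -6.84 (SE 0.85, adjusted p = 0.00224), 114 times lower. The call against NHD13 held on leaving out any 1 library, with log2 differences from -7.92 to -4.998. It was lost when the control libraries were left out of the fit (adjusted p = 0.0250, the highest of 2.96e-08 to 0.0250 over the alternatives). NHD13 differed from control by -0.84 (SE 0.76, adjusted p = 0.787), and this value ranged from -2.65 to -0.07 with the library left out.

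Igf2r encodes the cation-independent mannose 6-phosphate receptor, which carries lysosomal enzymes and removes IGF2 from the cell surface. It spans chr17:12682406-12769664 on the minus strand. The control libraries gave 24.97, 13.1 and 33.9 CPM (24.0 ± 10.4, SD, n = 3) and the NHD13 libraries 39.0 and 20.7 CPM (29.9 ± 12.9, SD, n = 2). The NHD13/MSI2 libraries gave 2.38, 0.499, 1.31 and 0.260 CPM (1.11 ± 0.957, SD, n = 4). As with Grb10, the 4 NHD13/MSI2 libraries lay below all the others, and control and NHD13 overlapped. The difference was -4.41 on the log2 scale against control (SE 0.64, adjusted p = 0.00147), 21.2 times lower, and the call held with every library left out in turn. Against NHD13 it was -4.72 (SE 0.68, adjusted p = 0.00396), 26.4 times lower. This second call was lost without NHD13 library 1 (adjusted p = 0.0235), NHD13/MSI2 library 2 (0.0125), NHD13/MSI2 library 3 (0.0129) or control library 1 (0.0119), and when the control libraries were left out of the fit (0.0287). Its log2 difference stayed between -5.34 and -4.17 with any 1 library left out, and its adjusted p ran from 7.54e-10 to 0.0287 over all alternatives. NHD13 and control differed by 0.31 (SE 0.67, adjusted p = 0.944).

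Airn is a non-coding transcript read from the paternal copy across the Igf2r promoter on the opposite strand, and it silences Igf2r on that copy. Its counts were low. The control libraries gave 0.613, 0.474 and 1.28 CPM, the NHD13 libraries 3.95 and 0.988 CPM, and the NHD13/MSI2 libraries 0, 0.349, 0.362 and 0.454 CPM. Airn was named after its values were seen, and it passed in no comparison, with adjusted p = 0.607 for NHD13 over control, 0.327 for NHD13/MSI2 over control and 0.101 for NHD13/MSI2 over NHD13. The sources used here do not give the strand setting of the counting, so reads of Igf2r and Airn where they overlap cannot be told apart.

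Igf2, the fetal growth factor that IGF2R clears, was close to absent. It gave 0.0817, 0 and 0.280 CPM in control, 1.38 and 0.296 CPM in NHD13, and 0, 0.150, 0.452 and 0 CPM in NHD13/MSI2, with 9, 36 and 13 counts in the 3 groups. Both NHD13 libraries lay above the 3 control libraries and the highest NHD13/MSI2 library lay between them. These counts did not pass the filter of the edgeR test. DESeq2, run without that filter, gave adjusted p = 0.671 for NHD13 over control, 0.930 for NHD13/MSI2 over control and 0.496 for NHD13/MSI2 over NHD13.

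H19, the maternally read RNA next to Igf2, had no count in any control library. Its level was 3.40 and 0.593 CPM in NHD13 and 0.362, 0.399, 1.13 and 0 CPM in NHD13/MSI2. The NHD13 mean was at least 15.6-fold higher than the floor of 3 counts per control library, and the NHD13/MSI2 mean at least 3.69-fold higher. Neither comparison passed in edgeR (adjusted p = 0.0935 and 0.0594). DESeq2 gave 0.00215 and 0.00617, the lowest of ranges that reached 0.249 and 0.138 over the alternatives. NHD13/MSI2 over NHD13 was -2.04 (SE 1.25, adjusted p = 0.404), and those groups overlapped. This difference was -0.28 without NHD13 library 1, -2.77 without NHD13 library 2 and -2.92 without NHD13/MSI2 library 3. H19 contains Mir675, which the table lists separately.

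Mest, a paternally read gene for a hydrolase-like membrane protein, gave 0.327, 0.237 and 0.320 CPM in control. NHD13 gave 2.85 and 0.988 CPM, and NHD13/MSI2 0.103, 0.648, 2.71 and 0.973 CPM. Both NHD13 libraries and 3 of 4 NHD13/MSI2 libraries lay above all control libraries, while NHD13/MSI2 library 1 lay below them. The log2 difference from control was 2.68 in NHD13 (SE 1.08, adjusted p = 0.298) and 1.89 in NHD13/MSI2 (SE 0.97, adjusted p = 0.204). Without NHD13 library 1 the first was 1.72, and without NHD13/MSI2 library 3 the second was 0.94. Copg2 overlaps Mest on the opposite strand, with the same limit as for Igf2r and Airn.

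Dlk1 encodes a transmembrane protein related to the Notch ligands and is read from the paternal copy. It spans chr12:109452823-109463336 on the plus strand. Its level was 0.163, 0.190 and 0.0799 CPM in control, which is 4, 4 and 2 counts. NHD13 gave 8.32 and 29.3 CPM (18.8 ± 14.8, SD, n = 2), and NHD13/MSI2 gave 0.0517, 0, 0.0905 and 0.0649 CPM, which is at most 2 counts a library. Dlk1 was thus the gene among the 10 with high counts in NHD13 and low counts on both sides, and the NHD13 libraries overlapped with neither group. NHD13 over control was 6.98 on the log2 scale (SE 0.76, adjusted p = 0.00166), 126 times higher. That call was lost without control library 1 (adjusted p = 0.0133), control library 2 (0.0105), control library 3 (0.0142) or NHD13 library 2 (0.0145). With any 1 library left out the log2 difference lay between 5.79 and 7.62, and the adjusted p ran from 7.31e-15 to 0.0145 over all alternatives. NHD13/MSI2 over NHD13 was a ratio of pooled counts of 354 times lower (95% exact interval 138 to 1304, counting error only, adjusted p = 0.000698), and this call held under every alternative. NHD13/MSI2 over control rested on 4 and 10 counts (ratio of 2.72, interval 0.786 to 11.9, adjusted p = 0.310).

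Meg3, the maternally read RNA downstream of Dlk1, was highest in control. Control gave 0.0817, 0.332 and 2.20 CPM, which is 2, 7 and 55 counts, and library 3 held most of them. NHD13 gave 0 and 0.0494 CPM, the latter a single count, and no NHD13/MSI2 library had a count. Both groups therefore lay below every control library, but Meg3 did not pass the filter and had no edgeR test. DESeq2, which was run on more genes, gave adjusted p = 0.319 for NHD13 over control and 0.00873 for NHD13/MSI2 over control. The second value was the lowest of a range up to 0.0581 over the alternatives in which Meg3 was tested.

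Ndn encodes necdin, a growth-restraining protein of resting cells that is read from the paternal copy. It spans chr7:62346569-62350262 on the plus strand. The control libraries gave 4.66, 3.89 and 15.6 CPM (8.05 ± 6.54, SD, n = 3), with 114, 82 and 390 counts. NHD13 had 3 counts in library 1 and 0 in library 2, and no NHD13/MSI2 library had any. Control did not overlap with either group. NHD13/MSI2 was at least 50.7-fold lower than control, against the floor of 3 counts per library (adjusted p = 0.00282). The call was lost without control library 1 (adjusted p = 0.0106) or control library 3 (0.0126), within a range of 2.22e-12 to 0.0126 over the alternatives that kept the moved gene names. NHD13 was 116 times lower than control by pooled counts (95% exact interval 39.6 to 565, counting error only) with adjusted p = 0.0612 in edgeR, so that this difference did not pass. DESeq2 gave 4.73e-06, and with the moved names the range reached 0.205.

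Peg3, a paternally read zinc-finger gene, had 0, 20 and 12 counts in control and none in the 6 other libraries. Control library 1 was therefore not apart from them. The adjusted p was 0.436 for NHD13 and 0.102 for NHD13/MSI2 against control. Plagl1, which encodes a zinc-finger factor that regulates other imprinted genes, had 2 counts in control library 3, 5 in NHD13/MSI2 library 2 and none elsewhere, so no difference was detectable at this depth.

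Levels of different genes were set side by side as CPM per kilobase of exon (GENCODE M21). In control, Grb10 led with a mean of 10.6, and its libraries (7.39 to 12.97) lay above those of the next genes. Igf2r followed with 2.58 (1.41 to 3.64) and Ndn with 2.18 (1.05 to 4.22), and these overlapped. The other 7 genes had means of 0.0747 or less. In NHD13, Grb10 (5.93), Dlk1 (3.32) and Igf2r (3.21) led, and their libraries overlapped. In NHD13/MSI2, the highest means were 0.281 for Mest, 0.192 for H19 and 0.119 for Igf2r, which overlapped too. The summed level of the 10 genes was 85.9 to 157 CPM in control, 67.3 to 148 CPM in NHD13 and 1.43 to 6.83 CPM in NHD13/MSI2, and most of each control sum was Grb10.

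Imprinted genes outside these 10 were counted as a list. It had 52 genes, 51 of them in the table, of which 16 had at most 3 counts in every library and 31 were tested. Snrpn and Snurf, which share exons, were among those near 0, and reads in shared exons may be left uncounted. In NHD13 over control, 0 were higher and 1 was lower (2 and 5 at an unadjusted p under 0.05, 1 and 1 by DESeq2), with a median log2 difference of -0.06 beside 0.02 over all genes tested. In NHD13/MSI2 over control, 1 was higher and 7 were lower (4 and 13 at an unadjusted p under 0.05, 3 and 9 by DESeq2), where 4.49% and 6.55% of all genes tested were called, with a median of -0.48 beside -0.01. In NHD13/MSI2 over NHD13, 0 were higher and 1 was lower (2 and 10 at an unadjusted p under 0.05, 1 and 5 by DESeq2), with a median of -0.26 beside -0.03. Genes with no count in a group, set at the floor of 3 counts, left these medians as they are. For this list and the IGF, imprint-keeping and marker lists below, shares and numbers over all genes tested are those given beside the 10 genes.

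Slc22a3, a polyspecific organic cation transporter next to Igf2r and imprinted in placenta, gave 119, 147 and 107 CPM in control. It gave 3.26 and 3.36 CPM in NHD13 and 1.65, 0.548, 1.09 and 0.389 CPM in NHD13/MSI2. It was low in all 6 libraries with the fusion, while for Igf2r the NHD13 libraries overlapped with control. The difference from control was -5.23 in NHD13 (SE 0.48, adjusted p = 0.000711) and -7.05 in NHD13/MSI2 (SE 0.40, adjusted p = 1.63e-05), and both calls held with each library left out. NHD13/MSI2 over NHD13 was -1.82 (SE 0.41, adjusted p = 0.0254).

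Sgce, the paternally read gene of epsilon-sarcoglycan, gave 32.3, 21.6 and 26.5 CPM in control, 21.6 and 7.11 CPM in NHD13 and 0, 0.798, 0.362 and 0.519 CPM in NHD13/MSI2. As with Grb10, the 4 NHD13/MSI2 libraries lay below all the others, and control and NHD13 overlapped. NHD13 over control was -0.90 on the log2 scale (SE 0.72, adjusted p = 0.725). Sgce was lower in NHD13/MSI2 than in control (log2 -5.98, SE 0.73, adjusted p = 0.000589) and than in NHD13 (-5.08, SE 0.74, adjusted p = 0.00413). The first call held with each library left out. The second was lost without any 1 of the control libraries, NHD13 library 1 or NHD13/MSI2 library 3, with an adjusted p of up to 0.0267, and when the control libraries were left out of the fit (0.0439).

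The other calls of NHD13/MSI2 over control were smaller or rested on few counts. Peg12, close to Ndn, fell from a mean of 21.3 to 0.648 CPM (log2 -5.08, adjusted p = 0.00377), and Phlda2, a restrainer of placental growth, from 2.23 to 0.117 CPM (-4.26, adjusted p = 0.00900). Tspan32, Ppp1r9a and Atp10a fell by 1.17, 1.42 and 1.00 on the log2 scale (adjusted p = 0.00679, 0.00967 and 0.00550). Rasgrf1, a paternally read exchange factor for RAS, had no count in control and 0.465 to 0.973 CPM in NHD13/MSI2, at least 5.64-fold higher than the floor of 3 counts per control library (adjusted p = 0.00484). Each of these 6 calls was lost on leaving out any 1 control library or NHD13/MSI2 library 3, with adjusted p of up to 0.0387. Leaving out NHD13/MSI2 library 1 lost Atp10a, Peg12, Phlda2, Ppp1r9a and Tspan32, leaving out NHD13/MSI2 library 2 lost Atp10a, Phlda2, Ppp1r9a, Rasgrf1 and Tspan32, and leaving out either NHD13 library lost Phlda2, Ppp1r9a and Tspan32.

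**Figure D2:**
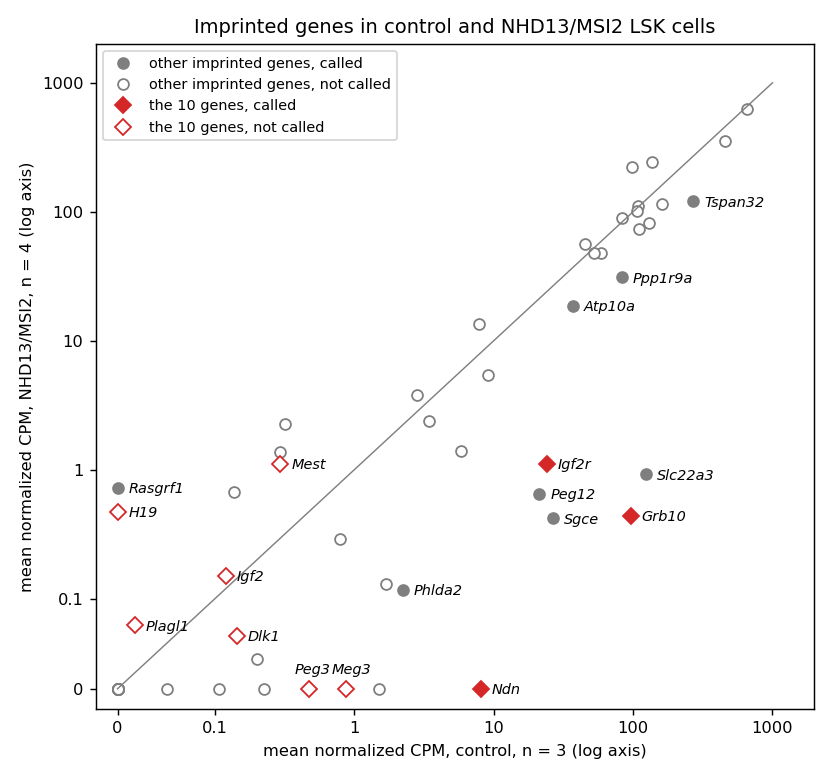
Mean normalized CPM of 51 other imprinted genes (grey circles) and the 10 genes (red diamonds) in control (horizontal, n = 3) and NHD13/MSI2 (vertical, n = 4) on log axes, with means of 0 drawn on the outer tick and filled symbols for genes past the threshold. The diagonal marks equal levels. Grb10, Igf2r, Ndn, Slc22a3, Sgce and Peg12 lie far below it, while most grey circles above 10 CPM lie near it.

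Genes of the IGF pathway beyond Igf2r and Grb10 were mostly not called. Of 21 genes for ligands, receptors, binding proteins and the kinases behind them, 16 were tested. In NHD13 over control 0 passed (5 higher and 0 lower at an unadjusted p under 0.05, 2 and 0 by DESeq2), and in NHD13/MSI2 over NHD13 0 passed (1 higher and 3 lower, 0 and 2 by DESeq2). In NHD13/MSI2 over control 1 was higher and 0 were lower (1 and 2 at an unadjusted p under 0.05, 1 and 1 by DESeq2). The median log2 difference of the list was 0.32, 0.02 and -0.38 in NHD13 over control, NHD13/MSI2 over control and NHD13/MSI2 over NHD13. The called gene was Igf2bp2, which encodes an RNA-binding protein that holds IGF2 mRNA. It gave 5.76, 7.12 and 4.997 CPM in control, 23.03 and 12.7 CPM in NHD13 and 15.8, 15.1, 19.3 and 16.8 CPM in NHD13/MSI2. All 6 libraries with the fusion lay above control. The log2 difference was 1.49 in NHD13/MSI2 (SE 0.26, adjusted p = 0.00366) and 1.59 in NHD13 (SE 0.30, adjusted p = 0.0227), the first lost without any 1 control library or NHD13/MSI2 library 3 (adjusted p up to 0.0232).

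The proteins that copy or protect methylation at imprinted loci gave no call. Of 19 such genes 18 were tested, and 0 passed in any comparison in edgeR. At an unadjusted p under 0.05, 0 were higher and 2 lower in NHD13 over control, 3 and 2 in NHD13/MSI2 over control, and 3 and 1 in NHD13/MSI2 over NHD13. DESeq2 called 1 higher and 2 lower in NHD13/MSI2 over control and none in the other comparisons. Medians were 0.03, 0.15 and 0.22 on the log2 scale in the same order. Zfp57, which encodes the best known reader of methylated imprints, was named after its values were seen. It gave 20.2, 17.5 and 14.3 CPM in control, 21.7 and 16.3 CPM in NHD13 and 2.95, 0.897, 1.31 and 9.73 CPM in NHD13/MSI2. The last group lay below the others, with log2 -2.23 against control (SE 0.69, adjusted p = 0.0465) and -2.37 against NHD13 (SE 0.74, adjusted p = 0.0864). NHD13/MSI2 library 4, the one that stood apart, was the highest of its group, and without it both differences passed, with log2 -3.33 against control (adjusted p = 0.000694) and -3.45 against NHD13 (adjusted p = 0.00260). Leaving out any other library gave adjusted p of up to 0.127 and 0.332, and DESeq2 gave 0.00648 and 0.0214 over all libraries.

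The tested genes nearest to the 4 called genes were read next, 2 on each side, a choice made after the calls were known. Around Grb10, Fignl1 (122 kb away) had means of 287, 248 and 232 CPM in control, NHD13 and NHD13/MSI2 and did not pass against either group. Ddc, 32.4 kb from Grb10 and imprinted with it in heart, was at 0.190 to 0.480 CPM in control, 0.395 and 29.1 CPM in NHD13 and 0.195 to 2.44 CPM in NHD13/MSI2, and did not pass. Around Igf2r, Mrpl18 had means of 173, 171 and 201 CPM. Mas1, 71.4 kb from Igf2r, was below 1 CPM in every library and had no count in NHD13/MSI2 (adjusted p = 0.0221 against control).

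Near Ndn, Mkrn3, a paternally read neighbour at 67.3 kb, had 1.38 to 1.59 CPM in control, 0 and 0.506 CPM in NHD13 and no count in NHD13/MSI2, with adjusted p = 0.0162 for NHD13/MSI2 over control. Ube3a, on the other side and about 3035 kb away, had means of 108, 126 and 111 CPM. Around Dlk1, Begain stayed under 1 CPM and Wdr25 had means of 9.44, 9.25 and 8.27 CPM. Of the 16 neighbours, those called in NHD13/MSI2 over control were Slc22a3, Peg12, Atp10a and Eldr, all lower. Of all genes tested, 6.55% were called lower and 4.49% higher in that comparison. Slc22a3, Peg12 and Atp10a are the same calls already counted in the list of other imprinted genes. Eldr, about 4896 kb from Grb10, had means of 11.2, 9.93 and 3.99 CPM (log2 -1.49, SE 0.32, adjusted p = 0.00982). Mas1, Mkrn3, Fignl1, Mrpl18, Ube3a and Wdr25 did not pass.

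**Figure D3:**
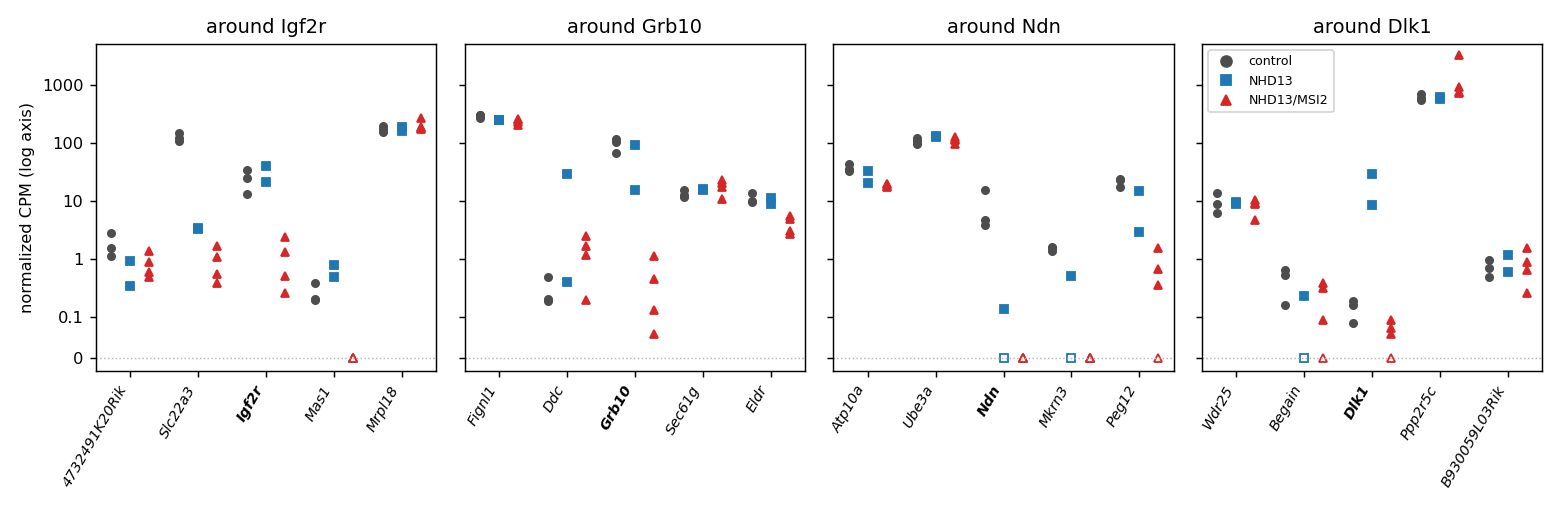
Normalized CPM (log axis) of Igf2r, Grb10, Ndn and Dlk1 (bold) and of the 2 nearest tested genes on each side, in genome order. Each symbol is 1 library (grey circles control, blue squares NHD13, red triangles NHD13/MSI2), with open symbols on the dotted line for no count. Slc22a3 is low in NHD13 and NHD13/MSI2, whereas the NHD13 libraries of Igf2r overlap with control.

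For each called gene, the 2 genes with the most similar profile were taken as those with the highest Pearson correlation of log2 CPM over the 9 libraries, among genes with a mean of at least 5 CPM. The 9 libraries fall into 3 groups, so these values describe likeness of group patterns. They were Abcg2 (0.997) and Pdzk1ip1 (0.994) for Grb10, Tfpi (0.991) and Pde5a (0.989) for Igf2r, Casq2 (0.993) and Iqcb1 (0.968) for Dlk1, and Sqle (0.973) and Clnk (0.966) for Ndn.

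Stem cell markers were lower in the same comparisons as Grb10 and Igf2r. Of 16 genes of a stem cell list, 11 were lower and 1, Mecom, higher in NHD13/MSI2 than in control, and 10 were lower than in NHD13. Without Mecom the summed level of the other 15 was 1787 to 2741 CPM in control, 728 and 2174 CPM in NHD13 and 154 to 176 CPM in NHD13/MSI2. With Mecom it was 1864 to 2884, 864 to 2571 and 1341 to 1864 CPM. NHD13 library 2, the lower of its group for the list, was also the lower for Grb10 and Igf2r. The part of these markers in the results above was not tested, and in bulk libraries fewer cells of a type and less RNA per cell cannot be told apart.

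The 5 LSK identity genes summed to 4611 to 5053 CPM in control, 2650 and 3145 CPM in NHD13 and 2568 to 3423 CPM in NHD13/MSI2, so control did not overlap with the other groups. Of these 5 genes, 0 were higher and 1 was lower in NHD13 than in control, and 0 were higher and 2 lower in NHD13/MSI2. Ly6a went against the sum in NHD13/MSI2, at 98.6 to 375 CPM against 79.3 to 89.8 CPM in control, without a call. Mean Ptprc was 646 CPM in NHD13/MSI2 and 530 CPM in control.

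The lists of other cell types also differed in level between groups. The neutrophil and monocyte list of 9 genes summed to 2111 to 3281 CPM in control, 3552 to 4627 CPM in NHD13 and 9345 to 15637 CPM in NHD13/MSI2. Mpo was the largest part of each sum, and the median log2 difference of the list from control was -0.86 in NHD13 (1 higher and 0 lower) and 0.52 in NHD13/MSI2 (2 higher and 0 lower). Mpo, Ctsg, Prtn3, Csf1r and Csf3r had higher means in NHD13/MSI2 than in control, and Elane, Camp, Ltf and S100a8 had lower ones. The B cell list gave 46.4 to 57.9, 83.5 to 129 and 262 to 447 CPM, the T cell list 37.6 to 50.3, 200 to 203 and 50.6 to 86.4 CPM, and the megakaryocyte list 68.2 to 150, 73.6 to 537 and 9.21 to 35.1 CPM. The endothelial list was 167 to 198 CPM in control, 332 to 351 CPM in NHD13 and 439 to 559 CPM in NHD13/MSI2. Most of this sum was Pecam1, which blood cells also express. The median log2 difference of the list in NHD13/MSI2 was -2.39 from control (1 higher and 1 lower) and -2.06 from NHD13 (0 higher and 1 lower), and Cdh5, the defining marker, was at or under 0.440 CPM in every library. The stromal list, whose cells express many of these imprinted genes, was 49.5 to 88.2 CPM in control, 44.9 to 66.9 CPM in NHD13 and 1.49 to 36.7 CPM in NHD13/MSI2. Pdgfrb made up most of the control sum, with means of 63.1, 45.6 and 4.37 CPM in the 3 groups. Cxcl12 reached 23.2 CPM and Col1a2 6.04 CPM, and the other 6 genes were at most 2.08 CPM in every library. Of these, Col1a1 had means of 0.197, 0.120 and 0.913 CPM, and Lum had no count in 8 of 9 libraries. The erythroid list was 11.4 to 16.1, 2.62 to 11.8 and 0.548 to 3.75 CPM, with the globin genes Hba-a1 and Hbb-b1 at no more than 1 count in any library. Their part in the results was not tested.

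**Figure D4:**
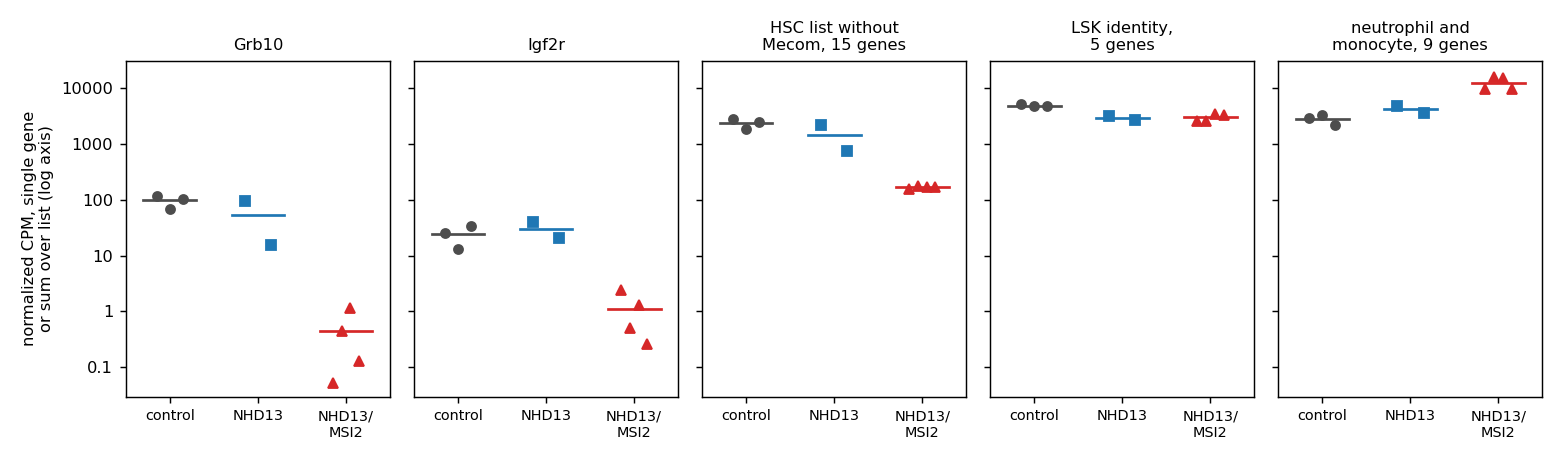
Normalized CPM of Grb10 and Igf2r and summed CPM of 3 marker lists (log axis) in each library, with symbols for libraries and bars for group means. The stem cell list without Mecom is lowest in NHD13/MSI2, at 154 to 176 CPM. The neutrophil and monocyte sum, mostly Mpo, is highest there, and the LSK sum is highest in control, at 4611 to 5053 CPM. Ly6a of the LSK list, not drawn by itself, is highest in NHD13/MSI2.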

How the data were processed

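RNA-seq of LSK cells gave 9 libraries (3 control, 2 NHD13, 4 NHD13/MSI2), grouped by the labels. The authors deposited 1 table of whole-number counts per gene symbol, with no normalization. The submitters' processing notes name STAR, HTSeq, DESeq and the build mm9, without versions. Genes sharing exons or near-identical copies may lose reads in such counting, and the strand setting is not given in the sources used here.

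Names after the rows that a spreadsheet had turned into dates (n-Mar) stood 2 rows too high, so 11942 names (49.6%), those of Meg3, Mest, Ndn, Peg3 and Plagl1 included, were moved down 2 rows. With the move Mpo, an abundant progenitor gene, had 29889 to 282745 counts a library, and 206 to 701 without it. The 13 rows left unnamed held 0.0253% to 0.0323% of counts and were left out.

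Counts were filtered with filterByExpr by group, scaled with trimmed mean of M-values factors and tested with edgeR 4.0.16 (quasi-likelihood test, R 4.3.3) over all 9 libraries, which share 1 estimate of the spread because NHD13 has 2 libraries. P-values were adjusted by Benjamini-Hochberg over 13355 genes, with a threshold of 0.01. Bounds and intervals rest on 3 counts per library or exact 95% limits and cover counting error only. Nothing in the labels says that libraries of a group came from separate recipients, so p-values measure the spread between these libraries. That spread may be technical in NHD13 and NHD13/MSI2. In control it includes a difference of sex, since Xist and Uty counts set library 2 apart from libraries 1 and 3. On simulated counts with 8-fold changes between NHD13/MSI2 and NHD13, 87.5% of 200 changed genes were recovered with 1 false call among 13071 genes. The changed genes had means above 1 CPM, the counts followed the model that the test assumes, and no library was made to stand apart. These figures therefore do not give the reliability of calls on genes near the floor or with a deviating library. Alternatives were DESeq2 1.42.0, other size factors, no filter or a mean of at least 50 counts, a threshold of 0.05, the 2 groups compared alone, a replicate block, the names as deposited and each library left out.

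The genes and lists were chosen with earlier results of these data known. Named were the 10 genes, every gene of the other imprinted, IGF and imprint-keeping lists past the threshold, and for each called member the 2 genes most like it. Positions are from GENCODE M21 on GRCm38 and promoters from RefSeq on GRCm38.p6, not the build of the counts.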

Additional observations from a re-analysis of the deposited data

Results flagged for a closer look

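Plagl1 was at 0.249 CPM in NHD13/MSI2 library 2 and had no count in the 3 other libraries of the group, a gap that takes up the whole range of the 4 values. The value is 5 counts. It came from 1 of 17 such tests. A gene with counts in only 1 library of the group always gives this gap, so no rate of chance flags is attached to it.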

How the results depend on the processing

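Over 19 results of the members and 17 alternative settings, 305 values were computed, of which 284 kept direction and side of the threshold, 13 lost the call, 4 gained it and 4 reversed. The number of members called in NHD13 over control was 1, and was 3 with DESeq2, 0 with a replicate block and 0 to 1 with a library left out. In NHD13/MSI2 over control it was 3, and was 5 with DESeq2 and 2 to 3 with a library left out. In NHD13/MSI2 over NHD13 it was 3, and was 1 with the 2 groups alone and 2 to 3 with a library left out. Without NHD13/MSI2 library 4 the numbers were 1, 3 and 3, without control library 1, described as bulk, they were 0, 2 and 2, and without control library 2 they were 0, 3 and 3. Over all genes it was run on, DESeq2 called 603, 2591 and 1296 in the same order, in place of 138, 1474 and 423 in edgeR. The cause of these shifts was not tested.

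For samples with the same replicate number, deviations from the group means correlated at -0.07 to 0.19. Samples with different numbers were not set beside them, and the 2 NHD13 deviations mirror each other. These values therefore cannot decide whether the samples were paired, and the main fit left the replicate number out. With the replicate block, 0 members were called in NHD13 over control (Dlk1 at adjusted p = 0.0132), and the genes called in NHD13/MSI2 over NHD13 numbered 203 in place of 423. Among the other named genes the block ended the calls of Igf2bp2 (adjusted p = 0.0143), Phlda2 (0.0117) and Rasgrf1 (0.0380) in NHD13/MSI2 over control and of Sgce (0.0291) in NHD13/MSI2 over NHD13. It brought Zfp57 past the threshold in NHD13/MSI2 over control (0.00124) and over NHD13 (0.00642).

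The log2 difference of Igf2r in NHD13 over control was between -0.21 and 0.69 with a library left out, and that of Mest in NHD13/MSI2 over NHD13 between -1.74 and 0.20. With the names as deposited, the row called Ndn gave adjusted p = 0.663 for NHD13 over control and 0.854 for NHD13/MSI2 over control, both with the opposite direction, because the name then stands on another gene's counts. Ppp1r9a in NHD13/MSI2 over control was lost with other size factors (adjusted p = 0.0113), a mean of at least 50 counts (0.0109) and the 2 groups alone (0.0159), and Tspan32 with the 2 groups alone (0.0113). Over all genes, calls ran from 38 to 603 in NHD13 over control (138 as reported), from 647 to 2745 in NHD13/MSI2 over control (1474) and from 30 to 1296 in NHD13/MSI2 over NHD13. The limits are depth, since 3 counts are 0.120 to 0.195 CPM and Igf2, Meg3, Plagl1 and Peg3 lie near it, and the number of NHD13 libraries, which is 2.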
